A study of Mus musculus with 6 samples.

Results

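The genes described here mark position along the dorsal to ventral axis of the mouse olfactory epithelium. They are 9 genes named by symbol: the dorsal markers Nqo1, Acsm4, Robo2 and Sema3f, the ventral markers Ncam2 and Nrp2, and the transcription factors Nfia, Nfib and Nfix. All 9 were found among 22029 symbols in the embryonic table and 22028 in the postnatal one, and none was listed at 0 in any library. Polyadenylated RNA of the main olfactory epithelium was sequenced in 6 libraries, 1 for each genotype, from mice of mixed background derived mainly from C57/B6. At E18.5, late in gestation, the genotypes were G9a het (heterozygous for G9a), G9a KO, G9a KO GLP het (G9a lost and GLP heterozygous) and G9a/GLP dKO, which lacks both enzymes. At postnatal day 21 they were Suv420h dhet, heterozygous for both Suv420h1 and Suv420h2, and Suv420h dKO, which lacks both. G9a (Ehmt2) and GLP (Ehmt1) methylate lysine 9 of histone H3, and the Suv420h enzymes methylate lysine 20 of histone H4. The reference libraries are heterozygous, not wild type, and the sources used here do not give the deleted regions or the driver of deletion. Each library is a piece of whole tissue, so fewer cells of a type and less RNA per cell cannot be told apart.

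In the olfactory epithelium each receptor gene is expressed by neurons within a restricted zone, and the axons of dorsal and ventral neurons reach dorsal and ventral parts of the olfactory bulb. Nqo1, a quinone reductase, and Acsm4, an acyl-CoA synthetase also called O-MACS, are expressed in the dorsal zone, Acsm4 in supporting cells as well as neurons. Ncam2, a cell adhesion molecule also called OCAM, is expressed by neurons of the remaining, ventral zones. Robo2, a receptor for Slit proteins, and Sema3f, a secreted repellent, are made at higher levels by dorsal neurons. Nrp2, the receptor that binds Sema3f, increases towards the ventral side. The Nfi proteins bind DNA as dimers, increase ventrally in the neuronal lineage and take part in the choice of ventral receptors. Nrp2, Robo2, Sema3f and the Nfi genes are also widely expressed outside the epithelium, in mesenchyme, nerve and brain, whereas Acsm4 is largely restricted to it.

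Promoter sequences are shown for Nqo1 and Acsm4, because both dorsal genes were lower in all 3 mutant embryonic libraries and higher in the Suv420h dKO library. RefSeq promoters (build GRCm38.p6) covering 250 bases before to 50 bases after the start were found for 7 of the 9 members, and Nfib and Sema3f are named only. The Nqo1 window lies on the minus strand of chromosome 8 from 107403156 to 107403455, and the Acsm4 window on the plus strand of chromosome 7 from 119689776 to 119690075. Each is written 5′ to 3′ in the direction of the gene, with TTGGCA, 1 arm of the NFI recognition site, in capitals where it lies on the gene strand and its complement TGCCAA where it lies on the other.
Nqo1: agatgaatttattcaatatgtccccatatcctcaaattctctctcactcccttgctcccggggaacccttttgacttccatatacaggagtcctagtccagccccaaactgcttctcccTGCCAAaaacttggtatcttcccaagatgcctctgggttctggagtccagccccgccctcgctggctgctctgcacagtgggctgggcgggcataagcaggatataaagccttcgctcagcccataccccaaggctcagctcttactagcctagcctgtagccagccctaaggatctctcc
Acsm4: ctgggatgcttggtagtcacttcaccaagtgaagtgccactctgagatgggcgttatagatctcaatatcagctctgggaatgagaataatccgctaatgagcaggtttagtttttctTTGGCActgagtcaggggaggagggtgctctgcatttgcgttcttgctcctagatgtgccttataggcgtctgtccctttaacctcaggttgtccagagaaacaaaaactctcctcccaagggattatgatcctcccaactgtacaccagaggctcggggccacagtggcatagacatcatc

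The NFI arm, searched on both strands, lay 131 to 126 bases before the start of Nqo1, on the other strand. In Acsm4 it lay 132 to 127 bases before the start, on the gene strand. Among 32851 promoter windows of the same length, 14.1% held TTGGCA. No window of Nrp2, Nfia, Nfix, Robo2 or Ncam2 held it. The complete NFI motif, TTGGC and GCCAA separated by 5 bases, which contains the first 5 bases of that arm, was in no member window and in 0.0365% of all windows. The antioxidant response core TGACNNNGC, known upstream of Nqo1, was in no member window and in 12.4% of all windows. The windows begin 250 bases before the start, so an element further upstream could not be found. The windows of Nqo1 and Acsm4 had 5 CpG dinucleotides each, within the range of the windows of Nfia (2), Nfix (2 to 13) and Robo2 (5 to 17). Ncam2 had 41 and Nrp2 37, and the median over all windows was 7. A match is a run of letters and not a measured binding site.

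The libraries differed in depth and in the levels of cell type markers. Low values of olfactory receptor (Olfr) genes fell in steps of 1 fragment, which gave estimates of 13200000 mapped fragments for both G9a het and G9a KO, 6390000 for G9a KO GLP het and 10100000 for G9a/GLP dKO. The postnatal estimates were 16000000 for Suv420h dhet and 13200000 for Suv420h dKO. Levels are given as FPKM, which is fragments scaled for transcript length and sequencing depth. The targeted genes Ehmt2 (24.5 to 32.5 FPKM in the embryonic libraries), Ehmt1 (15.8 to 20.8 FPKM), Suv420h1 (31.0 and 30.6 FPKM in the postnatal pair) and Suv420h2 (7.92 and 7.35 FPKM) remained detectable, and gene-level FPKM does not check the labels where the deleted part is not given. Xist was at 140 FPKM in G9a KO and 208 FPKM in G9a/GLP dKO, against 0.242 in G9a het and 0.272 in G9a KO GLP het, so the sex of the animals differed between embryonic libraries. Markers of the labelled tissue were present in all 6 libraries: 16 measured genes of mature olfactory neurons summed to 156 to 401 FPKM in the embryonic libraries and to 5435 and 5879 FPKM in the postnatal pair.

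Nqo1 (mm9 chromosome 8, 109912125 to 109927105) was higher in G9a het than in any mutant embryonic library. It was at 31.7 FPKM in G9a het, 18.9 in the G9a KO library, 22.1 in the G9a KO GLP het library and 16.8 in the G9a/GLP dKO library. The interval deposited by the authors for each value, of unstated level and resting on 1 library, overlapped between G9a het and every mutant for all 9 genes. For Nqo1 it was 20.5 to 42.5 FPKM in G9a het and 10.1 to 23.5 FPKM in G9a/GLP dKO. Acsm4 (chromosome 7, 126833540 to 126858080) showed the same separation of G9a het from the other embryonic libraries. It was at 37.8 FPKM in the G9a het library, with 22.4 in the G9a KO, 18.7 in the G9a KO GLP het and 19.7 in the G9a/GLP dKO library. Its intervals, 27.5 to 60.5 FPKM in G9a het and 13.7 to 32.8 FPKM in G9a/GLP dKO, overlapped as well. The mutant libraries lay within 16.8 to 22.1 FPKM for Nqo1 and 18.7 to 22.4 FPKM for Acsm4, and their order was not the same for both genes.

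The other dorsal markers, both axon guidance genes, did not share this pattern. Robo2 (chromosome 16, 73892551 to 74411157) was at 18.0 FPKM for G9a het, 16.7 for G9a KO, 16.1 for G9a KO GLP het and 19.1 for G9a/GLP dKO. These 4 values lay well inside each other's intervals. Sema3f (chromosome 9, 107583833 to 107612806) measured 17.4 FPKM in G9a het, 19.2 in the G9a KO library, 22.1 in the G9a KO GLP het library and 21.3 in the G9a/GLP dKO library, lowest in G9a het.

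The ventral markers differed in pattern. Ncam2 (chromosome 16, 81200942 to 81624532) was the least abundant member in the embryo, at 7.48 FPKM in the G9a het library, with 5.45 in the G9a KO, 4.43 in the G9a KO GLP het and 6.82 in the G9a/GLP dKO library. It was lowest in G9a KO GLP het and close to G9a het in G9a/GLP dKO, with overlapping intervals throughout. Nrp2 (chromosome 1, 62749891 to 62865266) was at 47.4 FPKM for G9a het, 47.9 for G9a KO, 60.4 for G9a KO GLP het and 54.3 for G9a/GLP dKO. The ratio of Nrp2 to Ncam2 ran from 6.33 in G9a het to 13.6 in G9a KO GLP het.

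The Nfi genes varied little between embryonic libraries. Nfib (chromosome 4, 81936077 to 82151212) was the most abundant of them, at 48.6 FPKM in G9a het, 51.4 in the G9a KO library, 55.0 in the G9a KO GLP het library and 51.3 in the G9a/GLP dKO library. Nfix (chromosome 8, 87231498 to 87324239) was at 29.3, 35.5, 31.7 and 29.6 FPKM, and Nfia (chromosome 4, 97234566 to 97785567) at 21.1, 22.4, 20.7 and 22.0 FPKM, in the same order of libraries. Nfic, the remaining gene of the family and not a member, was at 14.5 FPKM in G9a het and, among the mutants, at 15.1 in G9a KO and 17.7 in G9a/GLP dKO. It was highest in G9a KO GLP het, at a log2 ratio of 0.33 to G9a het. Nfix was highest in G9a KO, where 10 markers of brain and olfactory bulb also had their highest sum, 119 FPKM against 22.7 to 61.5 FPKM in the other embryonic libraries. The part of brain tissue in that value was not tested.

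**Figure D1:**
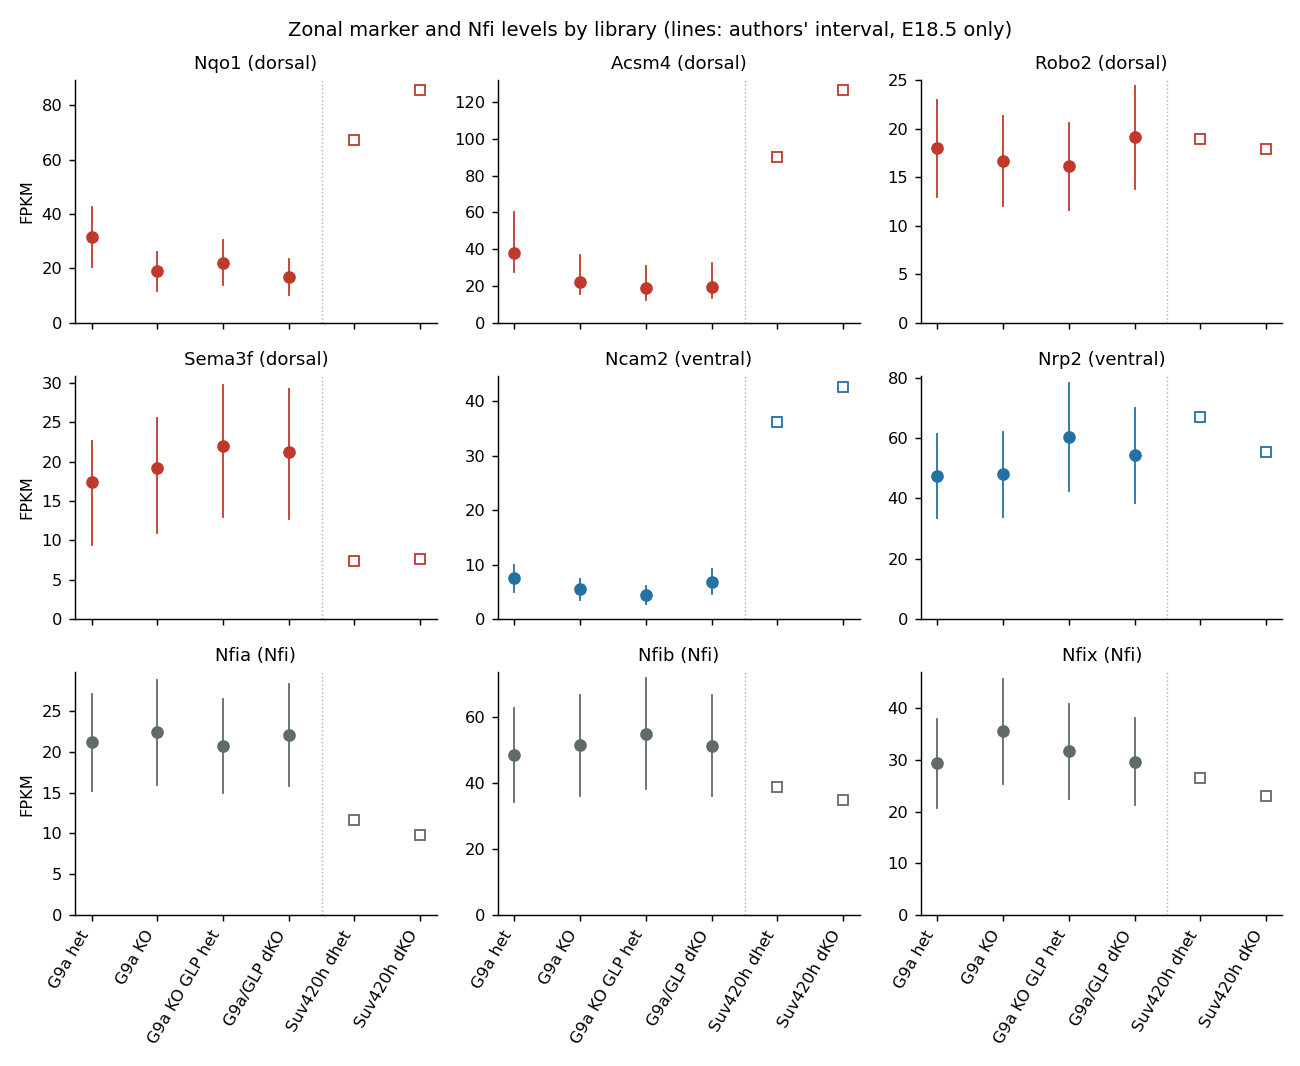
FPKM of the 9 genes in each library (x axis, libraries; y axis, FPKM from 0). Filled circles are the embryonic libraries with the authors' interval as a line, open squares the postnatal ones, whose table has no interval, and the dotted line separates tables made separately. Nqo1 and Acsm4 are highest among embryonic libraries in G9a het, at 31.7 and 37.8 FPKM, while the Nfi genes vary less.

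Ratios to G9a het were taken on log2(FPKM + 1), which understates differences of low genes. The 3 embryonic ratios share the G9a het library, so an unusual value there enters all of them. With 1 library per genotype no test was made and the ratios compare libraries. In G9a KO the log2 ratio was -0.72 for Nqo1 and -0.73 for Acsm4, and 2.39% and 2.28% of genes had a lower ratio. Ncam2 was at -0.40, Robo2 at -0.10, Sema3f at 0.14, Nrp2 at 0.02 and the Nfi genes at 0.08 to 0.27. None of the 9 members was at least 2-fold apart, against 0.996% of 14957 genes higher and 1.02% lower. No member had intervals apart, against 1.24% of those genes.

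In G9a KO GLP het, Acsm4 had a log2 ratio of -0.98, just inside the 2-fold bound on this scale, with a linear ratio of 0.494, and Nqo1 of -0.50. With a pseudocount of 0.1 FPKM, Acsm4 lay outside that bound. Ncam2 was at -0.64, a ratio below which 8.91% of genes lay. Nrp2 and Sema3f were at 0.34 and 0.33, Robo2 at -0.15 and the Nfi genes at -0.03 to 0.18. Again none of the 9 was at least 2-fold apart, where 2.12% of 15012 genes were higher and 3.92% lower, and none had intervals apart, where 4.1% of genes did.

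In G9a/GLP dKO, Nqo1 and Acsm4 had log2 ratios of -0.87 and -0.91, linear ratios of 0.531 and 0.519. In all, 2.75% and 2.44% of genes had lower ratios than these. Ncam2 was at -0.12, Nrp2 at 0.19, Robo2 at 0.08 and Sema3f at 0.28, with the Nfi genes at 0.02 to 0.08. None of the 9 was at least 2-fold apart, against 2.04% of 15079 genes higher and 2.02% lower, and none had intervals apart, against 2.51%. Acsm4 was at -0.18 with G9a KO as the reference and 0.07 with G9a KO GLP het. Nqo1 was at -0.16 and -0.37 in the same order. These references were chosen after the data had been seen. The differences of the dorsal pair in G9a/GLP dKO were thus smaller against either other mutant than against G9a het.

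**Figure D2:**
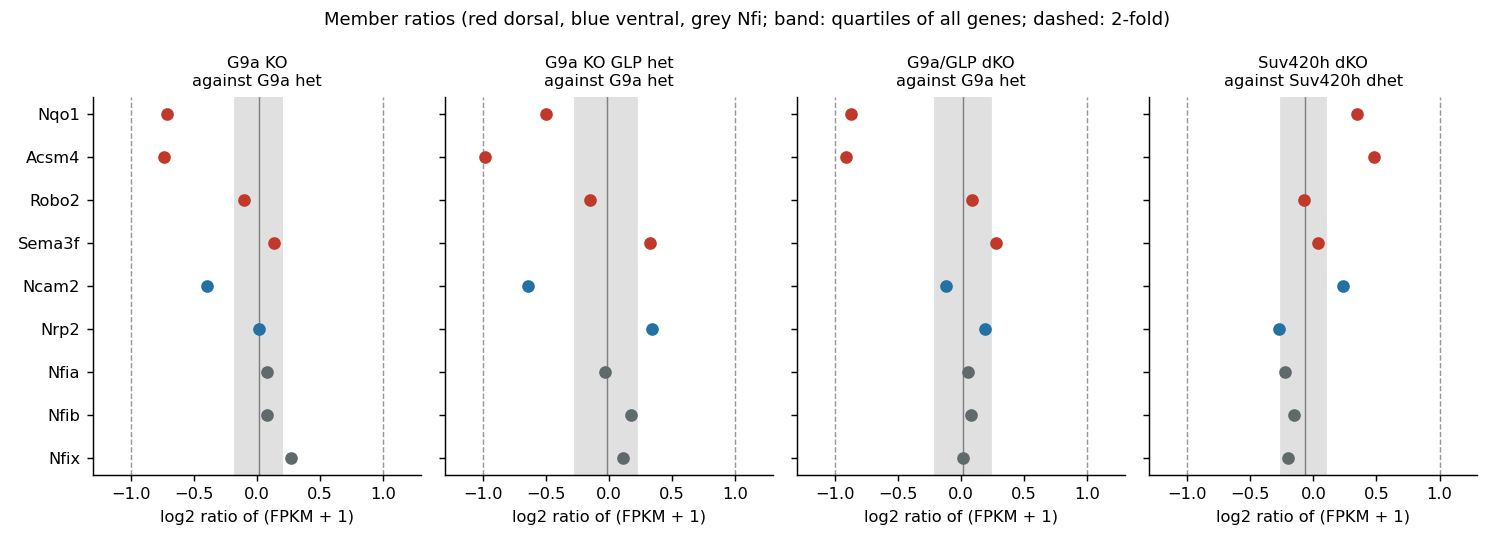
Log2 ratio of each member (x axis, log2 of FPKM + 1; y axis, genes) in the 4 comparisons. The grey band holds the genes between the lower and upper quartile, the solid line their median, and dashed lines mark 2-fold. Nqo1 and Acsm4 sit left of the band in the 3 embryonic panels, between -0.50 and -0.98, and right of it in the postnatal panel, at 0.35 and 0.48.

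Markers of mature neurons and of supporting (sustentacular) cells were also lower in the 3 mutant embryonic libraries. The 16 mature neuron markers summed to 401 FPKM in the G9a het library, with 223 in the G9a KO, 156 in the G9a KO GLP het and 205 in the G9a/GLP dKO library, and the mutants had median log2 ratios of -0.64, -1.03 and -0.62. Of these 16 genes, 5, 8 and 6 were at least 2-fold lower in the mutants in that order, beside 1.02%, 3.92% and 2.02% of all genes. The 10 sustentacular markers summed to 1409 FPKM for G9a het, 988 for G9a KO, 691 for G9a KO GLP het and 608 for G9a/GLP dKO, with medians of -0.53, -0.85 and -1.19. Of these 10 genes, 1, 4 and 7 were at least 2-fold lower, beside the same shares of all genes. In G9a KO GLP het 1 was 2-fold higher, beside 2.12% of all genes. No marker of either list was at 0. Immature neuron markers had medians of 0.10, -1.08 and -0.02, so they were lower in G9a KO GLP het, where Ncam2 also had its lowest value. There all 10 were below 0, from -0.19 for Gng8 to -1.97 for Crmp1. Markers of brain and olfactory bulb were also lower in that library, with a median of -1.66. The part of each tissue in the immature marker values was not tested. The medians of all genes were 0.02, -0.01 and 0.01.

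How the dorsal pair compared with G9a het depended on the marker list by which it was divided. Division by the geometric mean of the mature neuron markers lifted the median log2 ratio of all genes to 0.76, 1.19 and 0.88 in the 3 mutants. On that scale the ratio to G9a het was 1.04 for Nqo1 and 1.03 for Acsm4 in G9a KO, and 1.02 and 0.998 in G9a/GLP dKO. In G9a KO GLP het, where these neuron markers were lowest, the ratios were 1.72 and 1.22. Ncam2 stood at 1.27, 1.46 and 1.75 in the 3 mutants, in the order used above. Apart from Acsm4 in G9a/GLP dKO, every member had ratios above 1 on this scale, which lifts all genes. Those of Nrp2, widely expressed outside neurons, were 1.77, 3.14 and 2.20. Members were counted on log2(FPKM + 1) after the division. By that count 1, 6 and 3 of the 9 were at least 2-fold higher than in G9a het. The shares of all genes were 18.8%, 67.8% and 34.7%, so these counts follow the scale. Without the added 1 FPKM, Robo2 and Nfia also exceeded 2 in G9a/GLP dKO, at 2.04 and 2.002. Division by the geometric mean of the sustentacular markers, chosen after seeing the data, gave 0.934 for Nqo1 and 0.924 for Acsm4 in G9a KO. The G9a KO GLP het library had 1.19 and 0.843. In G9a/GLP dKO it gave 1.66 and 1.62, where the median log2 ratio of all genes was 1.54. That mean leans heavily on the low gene Cyp1a2 (1.37 FPKM in G9a het, 0.130 in G9a/GLP dKO) and on Sult1c1 (11.1 and 0.991 FPKM). These had the largest relative falls of the list in G9a/GLP dKO. Sult1c1 went the other way in G9a KO GLP het, at 26.1 FPKM. Division without these genes was not run, so how far the sustentacular ratios rest on them was not tested. On the sustentacular scale, counted in the same way, 0, 2 and 7 members were at least 2-fold higher, beside 8.54%, 19.2% and 88.3% of all genes. Mesenchyme markers, 10 genes, summed to 5718 FPKM in G9a het, 6243 in the G9a KO library, 7107 in the G9a KO GLP het library and 6245 in the G9a/GLP dKO library, so Nrp2 and these markers were both highest in G9a KO GLP het. The part of cell content in the member ratios was not tested.

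**Figure D3:**
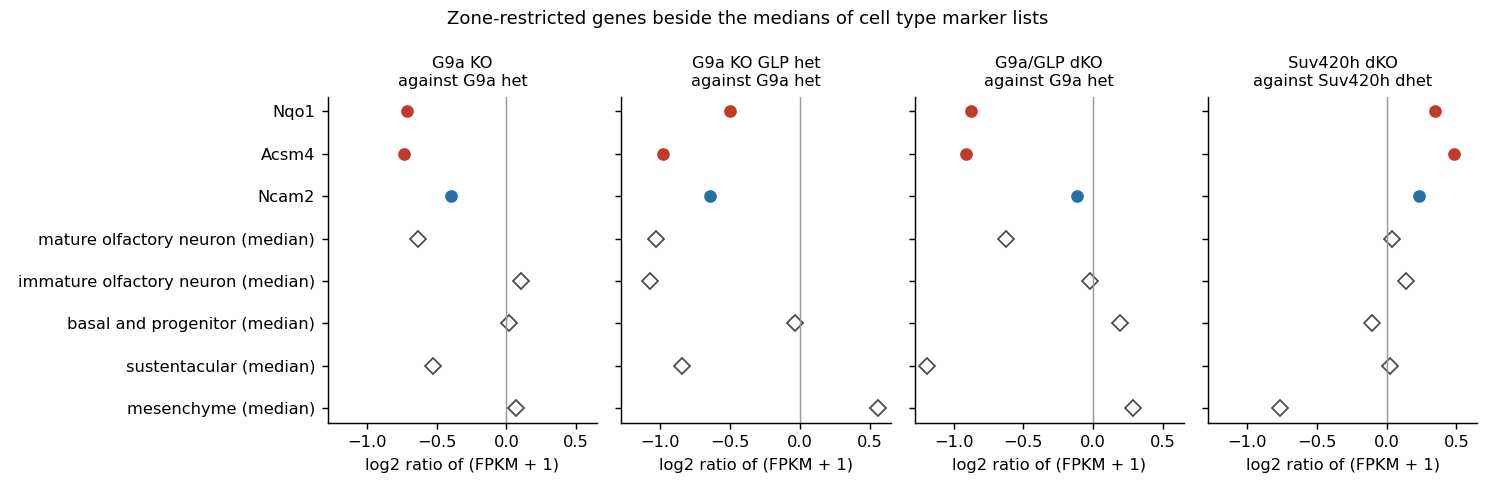
Log2 ratios (x axis, log2 of FPKM + 1) of Nqo1, Acsm4 and Ncam2 (filled circles) beside the median ratio of 5 cell type marker lists (open diamonds) in the 4 comparisons. In the embryonic panels the mature neuron and sustentacular medians lie between -0.53 and -1.19, on the same side as the dorsal pair. In the postnatal panel both medians are close to 0 and the 3 genes lie above 0.

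The dorsal against ventral balance, the mean log2 level of the 4 dorsal genes minus that of both ventral genes, was 0.35 in the G9a het library, with 0.19 in the G9a KO, 0.17 in the G9a KO GLP het and -0.05 in the G9a/GLP dKO library. Relative to G9a het it was thus lower by 0.16, 0.18 and 0.39 on the log2 scale. These differences mix genes with unlike patterns. With Nqo1 and Acsm4 alone as dorsal genes they were -0.53, -0.59 and -0.93. With Ncam2 alone as the ventral gene they were 0.043, 0.32 and -0.24, so the direction turned in both libraries other than G9a/GLP dKO. The ratio of Nqo1 to Ncam2, both FPKM, was 4.23 for G9a het, 3.47 for G9a KO, 4.98 for G9a KO GLP het and 2.47 for G9a/GLP dKO. For Acsm4 to Ncam2 the values were 5.06, 4.11, 4.22 and 2.88. Both ratios were lowest in G9a/GLP dKO, while in G9a KO GLP het one lay above and the other below G9a het.

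Receptor genes, none of them a member, were compared as well. Class I receptors are known to be expressed mostly in the dorsal zone. They were taken as the 123 Olfr genes from Olfr543 to Olfr691 on chromosome 7. In G9a het, 16.7% of Olfr FPKM came from class I receptors (95% Wilson interval 15.9 to 17.6 over an estimated 7856 receptor fragments). The share was 11.8% in G9a KO (10.9 to 12.9), 12.8% in G9a KO GLP het (11.2 to 14.5) and 4.76% in G9a/GLP dKO (4.18 to 5.48). These intervals cover counting error only. Like the dorsal pair, the share was highest in G9a het, and it was lowest in G9a/GLP dKO, where 89 of 1116 receptors reached 0.5 FPKM against 427 in G9a het. Without the 5 highest receptors of each library the share in G9a/GLP dKO was 8.39%, against 15.2% in G9a het. The summed class I level was 105 FPKM in G9a het and 21.1 FPKM in G9a/GLP dKO, and that of all receptors 631 and 443 FPKM.

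**Figure D4:**
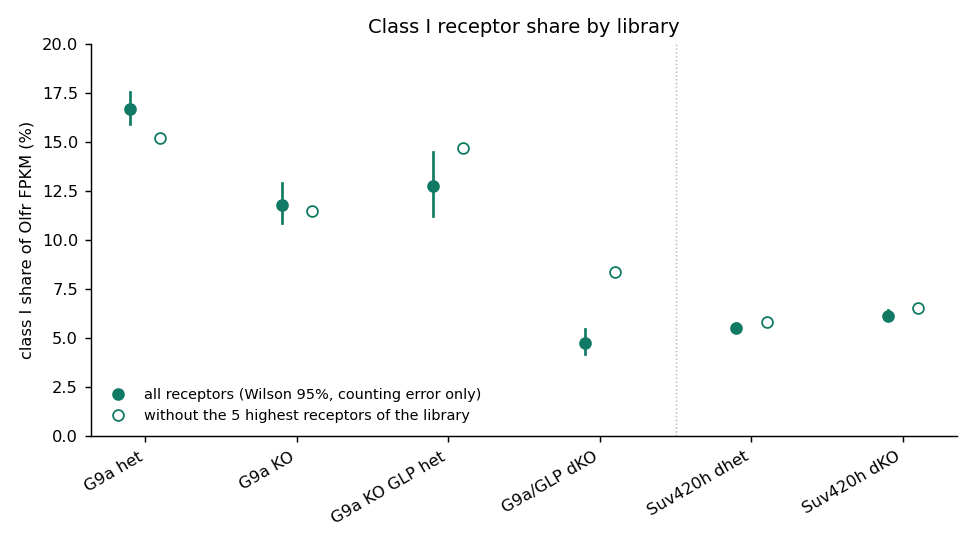
Share of Olfr FPKM held by class I receptors (y axis, percent from 0) in each library (x axis). Filled circles use all receptors, with the 95% Wilson interval over estimated fragments, and open circles leave out the 5 highest receptors of each library. The share runs from 16.7% in G9a het to 4.76% in G9a/GLP dKO, and is 5.51% and 6.15% in the postnatal pair.

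Single receptors of known zone were too low in the embryo to order the libraries. Olfr16 (MOR23), Olfr73 (mOR-EG), Olfr160 (M72) and Olfr545, which are 4 dorsal receptors, summed to 3.78 FPKM in G9a het, 1.83 in the G9a KO and 1.15 in the G9a KO GLP het library, and all were listed at 0 in G9a/GLP dKO. Olfr17 (P2) and the neighbours Olfr1507 (MOR28), Olfr1508 and Olfr1509, 4 ventral receptors, summed to 2.54, 1.37, 0.966 and 0.345 FPKM in the same order of libraries. Both sums were lower in the mutants, where fewer receptors of any kind were detected. These receptors were chosen for what is known of their zones, after earlier results for receptors had been seen.

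The trace amine receptors gave low values too. Taar2, Taar3, Taar4, Taar5, Taar8a, Taar8b, Taar8c and Taar9, which are mostly dorsal, summed to 2.72 FPKM in G9a het, 1.35 in the G9a KO library, 0.861 in the G9a KO GLP het library and 0.358 in the G9a/GLP dKO library. Taar6 and 5 Taar7 genes, some of which are also expressed ventrally, summed to 2.78, 0.741, 3.32 and 2.14 FPKM. The Taar7 genes are close copies of each other, so how reads were divided among them is uncertain.

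At postnatal day 21 the dorsal pair was higher in the Suv420h dKO library, and Nrp2 and the Nfi genes were lower. Acsm4 was at 90.3 FPKM in Suv420h dhet and 126.5 in Suv420h dKO, a log2 ratio of 0.48, and the authors' deposited table gives it a q of 0.0190. Nqo1 was at 67.1 and 85.6 FPKM, a log2 ratio of 0.35, and the q in the authors' deposited table was 0.226. Ratios above those of Acsm4 and Nqo1 were seen for 3.88% and 6.87% of genes. The authors' test sets 1 library against 1 library and so compares the libraries, not the genotypes.

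Ncam2 was at 36.1 FPKM in Suv420h dhet and 42.6 in Suv420h dKO, a log2 ratio of 0.23, in the same direction as the dorsal pair. Nrp2 was at 67.0 and 55.4 FPKM, a log2 ratio of -0.27, and its q was 0.0305 by the authors' deposited table. Acsm4 and Nrp2 were the members under a q of 0.05, 2 of 9, where 4.13% of 16140 genes tested by the authors were. None of the 9 was at least 2-fold apart, against 0.69% of 14351 genes higher and 2.06% lower. Robo2, at 19.0 and 18.0 FPKM, and Sema3f, at 7.36 and 7.57 FPKM, had log2 ratios of -0.08 and 0.04.

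All 3 Nfi genes were slightly lower in Suv420h dKO. Nfia was at 11.6 and 9.77 FPKM, Nfib at 38.7 and 34.8 FPKM, and Nfix at 26.5 and 22.9 FPKM, with log2 ratios of -0.23, -0.15 and -0.20. In the authors' deposited table their q lay between 0.341 and 0.443. The median of all genes in this comparison was -0.06, and 28.3% of genes had a lower ratio than Nfia.

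Neuron markers differed little within the postnatal pair, and mesenchyme markers differed more. The mature neuron markers had a median log2 ratio of 0.04 and the sustentacular markers of 0.02. Of 16 mature markers 1 was at least 2-fold lower, Slc8a3 (6.74 and 2.76 FPKM), beside 2.06% of all genes. The geometric mean of the mature markers was 157 FPKM in Suv420h dhet and 154 FPKM in Suv420h dKO. Divided by it, the ratios of Nqo1 and Acsm4 were 1.31 and 1.43, against 1.28 and 1.40 as deposited. Mesenchyme markers summed to 4117 FPKM in Suv420h dhet and 1698 in Suv420h dKO, with a median of -0.77. Of the 9 compared genes 3 were at least 2-fold lower, beside 2.06% of all genes. Most of the fall in the sum came from Col1a1 (1858 and 660 FPKM) and Col1a2 (1581 and 570 FPKM). All 9 ratios were below 0, with Dcn at only -0.08. Twist2, which marks mesenchyme, was listed at 0 in Suv420h dhet. Endothelial markers had a median of -0.43. Nrp2 and the Nfi genes had ratios in the same direction as these markers, and the part of mesenchyme content in their ratios was not tested.

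The dorsal against ventral balance was -0.65 in Suv420h dhet and -0.44 in Suv420h dKO, a difference of 0.22 on the log2 scale. With Nqo1 and Acsm4 alone as dorsal genes the difference was 0.43. With Ncam2 alone as the ventral gene and all 4 dorsal genes kept, it was -0.036. Without Robo2, Sema3f and Nrp2, the mean of Nqo1 and Acsm4 minus Ncam2 was 1.09 in Suv420h dhet and 1.27 in Suv420h dKO. Class I receptors held 5.51% of Olfr FPKM in Suv420h dhet (5.30 to 5.77) and 6.15% in Suv420h dKO (5.93 to 6.44). The 4 dorsal receptors named above summed to 6.20 and 10.3 FPKM and the 4 ventral ones to 38.3 and 49.3 FPKM, so both were higher in Suv420h dKO. The mostly dorsal Taar genes summed to 4.70 FPKM in Suv420h dhet and 10.7 in Suv420h dKO, and Taar6 with the Taar7 genes to 9.81 and 10.8 FPKM.

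Set side by side without a test, because the tables were made separately, the members were ordered differently at each age. In G9a het the order from high to low was Nfib, Nrp2, Acsm4, Nqo1, Nfix, Nfia, Robo2, Sema3f and Ncam2. In Suv420h dhet it was Acsm4, Nqo1, Nrp2, Nfib, Ncam2, Nfix, Robo2, Nfia and Sema3f. Every pair of neighbours in the embryonic order had overlapping intervals in G9a het. Ncam2 stood at 7.48 FPKM in G9a het and 36.1 in Suv420h dhet, and Sema3f at 17.4 and 7.36 FPKM. Robo2 was at 18.0 and 19.0 FPKM. The sum of the mature neuron markers was 401 FPKM in G9a het and 5435 in Suv420h dhet.

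Among other genes of the guidance system, none of 12 was at least 2-fold apart in any of the 4 comparisons on log2(FPKM + 1), the scale of all list counts here. Over all genes, 0.69% to 2.12% were at least 2-fold higher and 1.02% to 3.92% lower across the comparisons. A count of 0 in a list this small, here and below, is near those shares. The 12 genes had median log2 ratios of -0.07, -0.003, -0.03 and -0.07, taking the 3 embryonic mutants in the order used above and Suv420h dKO last. Robo1, the closest relative of Robo2 in this list, was at 25.2 FPKM in G9a het and 25.05 to 25.8 FPKM in the mutants. Nrp1, the other neuropilin, was at 24.1 FPKM in G9a het and 22.2 to 25.7 FPKM in the mutants. Plxna1, a plexin that signals with neuropilins, stood at 20.5 FPKM in G9a het and 26.2 FPKM in G9a/GLP dKO, and Ncam1, the relative of Ncam2, at 69.0 and 59.3 FPKM. Slit1, a ligand of Robo2, came nearest to that bound, at 4.34 FPKM in G9a het and 1.77 in G9a KO GLP het. Plxna4, another plexin, was at 8.41 and 4.11 FPKM in the same libraries. Both deposited FPKM differ by more than 2-fold there, and both genes were named after their values were seen.

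Of 14 genes for retinoid metabolism and retinoid receptors, 2 were at least 2-fold lower in G9a/GLP dKO, beside 2.02% of all genes. None of the 14 was 2-fold apart in the other comparisons, of which the postnatal one had 13 of the genes. The medians of the list were -0.10, 0.11, -0.02 and -0.03 in the same order of comparisons. Aldh1a1, which makes retinoic acid, was at 48.7 FPKM in the G9a het library, with 34.4 in the G9a KO, 26.3 in the G9a KO GLP het and 22.0 in the G9a/GLP dKO library. In the postnatal pair it was at 115 and 167 FPKM, where the authors' deposited table has a q of 0.00459. As with Acsm4 and Nqo1, its level was lower in the embryonic mutants and higher in Suv420h dKO. Cyp26a1, which degrades retinoic acid, stood at 7.83 FPKM in G9a het and 3.03 in G9a/GLP dKO, while the binding proteins Crabp1 (77.5 and 69.3 FPKM) and Crabp2 (52.3 and 57.3 FPKM) were closer.

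Genes of the Nrf2 pathway, which controls Nqo1 in many tissues, did not follow it as a group. Of 10 genes, 9 of them compared in the embryo, Slc7a11, a cystine transporter, was at least 2-fold higher in G9a KO and in G9a/GLP dKO, at 6.36 and 7.46 FPKM against 1.88 in G9a het. Of all genes, 0.996% and 2.04% were 2-fold higher in these libraries. No gene of the list was 2-fold lower in any comparison, and its medians were -0.13, -0.19, 0.02 and -0.07. Txnrd1, a thioredoxin reductase, stood at 47.0 FPKM in G9a het and 42.2 in G9a/GLP dKO, Gsta4, a glutathione transferase, at 47.1 and 31.8 FPKM, and Nfe2l2, which encodes Nrf2, at 32.7 and 33.1 FPKM. Gclc, the catalytic subunit for glutathione synthesis, did follow Nqo1, at 29.1 FPKM for G9a het, 16.0 for G9a KO, 17.7 for G9a KO GLP het and 15.5 for G9a/GLP dKO.

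Of 9 factors that act in receptor choice, none was 2-fold apart in any comparison, with medians of -0.11, -0.27, -0.22 and 0.11. Lhx2 was at 56.1 FPKM in G9a het and 45.7 to 50.2 FPKM in the mutants. Its cofactor Ldb1 was at 65.7 FPKM in G9a het and 75.1 to 82.7 FPKM in the mutants. Ebf2 was lower, at 38.8 FPKM in G9a het and 22.3 to 26.9 FPKM in the mutants, and Ebf3 was at 57.4 FPKM against 46.2 to 49.1.

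The genes with patterns closest to the zone-restricted members were sought among 10783 genes over all 6 libraries. Likeness was the root mean square difference of log2(FPKM + 1) after each table was centred on its own mean. Closest to Nqo1 were Mansc1 (0.063), Lrguk (0.064) and Gclc (0.066). Closest to Acsm4 were Galnt14 (0.050), Rgnef (0.059) and Cldn10 (0.071). Cldn10, a claudin, stood at 37.4 FPKM in G9a het, against 21.8 in the G9a KO and 19.2 in the G9a KO GLP het library. Close to Ncam2 were Insm1 (0.036), a transcription factor of newborn olfactory neurons, and 1810041L15Rik (0.039). Nqo1 and Acsm4, at a difference of 0.17 from each other, were not each other's closest match: Acsm4 ranked 197 for Nqo1. Over 6 libraries many genes match any pattern closely, and the ranks are a description.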

How the data were processed

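The submitters' processing notes name TopHat, Cufflinks, Cuffdiff and the build mm9. Versions, annotation and the handling of reads with several matches were not given in the sources used here. Per the labels, RNA was purified on polydT beads and made into libraries with ScriptSeq V2. The authors deposited FPKM, which is fragments scaled for transcript length and sequencing depth, in a table for each age. Per the file headers, the embryonic table adds a lower and upper bound for each FPKM, of unstated level. For the postnatal pair, the authors deposited p-values and q-values from their test of 1 library against 1.

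Groups came from the labels, and each has 1 library, so no test was made. Ratios used log2(FPKM + 1) over genes at 1 FPKM or more in either library, without Olfr genes and short RNAs (symbols that begin with n-R, Mir, Snor, Scarna or Rnu). Genes at least 2-fold apart were counted. Starts are written from 1, since spans of most single-exon receptors were then multiples of 3. The worth of 1 fragment was the peak of a periodogram of FPKM times length over 970 receptors with spans under 1100 bases, tested on simulated data. The embryonic steps were less sharp, with scores of 0.134 to 0.205 against 0.733 and 0.778 where 1 is a perfect fit, so those fragment numbers are estimates. Likeness used genes with a mean of 5 FPKM or more in the embryonic table. Named pathway genes were those 2-fold apart and then the most abundant, up to 4 a list. Marker lists for 10 cell types were measured, of which Gfy, Dnah5 and Dnah9 had no row. Members and lists were chosen with earlier results of these data known. Python 3.11.15, pandas 2.3.3, numpy 2.4.6 and scipy 1.17.1 were used.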

Additional observations from a re-analysis of the deposited data

How the results depend on the processing

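No paired analysis was possible because each genotype has 1 library. The members at least 2-fold apart, 0 of 9 in each comparison, became 1 in G9a KO GLP het with a pseudocount of 0.1 FPKM (Acsm4). Divided by the mature neuron markers they became 1 in G9a KO (Nfix), 6 in G9a KO GLP het (all but Nqo1, Acsm4 and Ncam2) and 3 in G9a/GLP dKO (Sema3f, Nrp2 and Nfib), all higher, beside 18.8%, 67.8% and 34.7% of all genes. Divided by the sustentacular markers, chosen after seeing the data, they became 2 in G9a KO GLP het (Sema3f and Nrp2) and 7 in G9a/GLP dKO (all but Nqo1 and Acsm4), beside 19.2% and 88.3% of all genes. By construction, both divisions lift every gene in the embryonic mutants. The count stayed at 0 with ratios centred on the median, with a minimum of 5 FPKM, with no minimum and, chosen after seeing the data, with G9a KO or G9a KO GLP het as the reference for G9a/GLP dKO. The dorsal minus ventral difference changed sign with Ncam2 as the only ventral gene in G9a KO (0.043), G9a KO GLP het (0.32) and Suv420h dKO (-0.036). With Robo2 and Sema3f left out as well, it kept its sign in these comparisons. In G9a/GLP dKO it stayed below 0 under every alternative run, from -0.93 to -0.22. Restricted to receptors at 0.5 FPKM or more, the class I share in G9a het was 18.7%. Without the 5 highest receptors of each library it was 15.2% in G9a het, 14.7% in G9a KO GLP het, 8.39% in G9a/GLP dKO, 5.85% in Suv420h dhet and 6.54% in Suv420h dKO. The causes were not tested. With 1 library per genotype, neither the spread between animals nor an effect of sex or of dissection can be separated from genotype, and the smallest depth, 6390000 estimated fragments, belongs to G9a KO GLP het.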

Other observations

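Other cell type lists, measured beside the members, also differed between libraries. Markers of brain and olfactory bulb, 10 genes, summed to 54.5 FPKM in G9a het, 119 in the G9a KO library, 22.7 in the G9a KO GLP het library and 61.5 in the G9a/GLP dKO library, with Neurod6 and Slc32a1 at 0 in G9a KO GLP het. In the postnatal pair they summed to 78.2 and 53.4 FPKM, with Neurod6 and Neurod2 at 0 in Suv420h dKO. Glial markers summed to 170 FPKM in the G9a het library, with 332 in the G9a KO, 116 in the G9a KO GLP het and 228 in the G9a/GLP dKO library, with Fabp7 at 85.4, 234, 45.8 and 139 FPKM. Cartilage markers had medians of 0.23, 0.15 and -0.25 in the embryonic comparisons and -0.53 in the postnatal one, where Matn1 was at 0 in both libraries. Respiratory ciliated markers had medians of -0.19, -0.34 and -0.51 in the embryo, with 6 of 8 measured, and -0.11 in the postnatal pair. Basal and progenitor markers had medians of 0.02, -0.03, 0.19 and -0.11.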
